A study of Canis lupus familiaris with 25 samples.

Results

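The genes of the peroxisome proliferator-activated receptors (PPARs), of their partner receptors, the retinoid X receptors (RXRs), and of 2 coactivators of the PGC-1 family were followed in the 3′ RNA-Seq counts of 25 canine tumor samples. The rule took 8 rows by gene symbol (PPARA, PPARD, PPARG, RXRA, RXRB, RXRG, PPARGC1A and PPARGC1B) out of the 24532 genes of the count table, and all 8 were found.

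The samples were formalin-fixed, paraffin-embedded pieces of 3 groups of tumors. Hepatoid gland adenoma (HGA) is a benign tumor of the perianal glands of the dog, which are modified sebaceous glands, and 10 samples came from dogs aged 8 to 14 years (5 females, of which 3 neutered, and 5 males, of which 1 neutered). Apocrine gland anal sac adenocarcinoma (AGASAC) is a malignant tumor of the apocrine glands in the wall of the anal sac, and 11 primary tumors came from dogs aged 8 to 12.5 years (5 females, of which 3 neutered, and 6 males, all neutered). The third group held 4 metastases in sublumbal lymph nodes, 1 from each dog that gave primary tumors 1 to 4. These dogs were aged 8 to 10 years (2 females, of which 1 neutered, and 2 males, all neutered). All of the samples were archive tissue taken as bulk, with no treatment named in the labels, so fewer cells of a type and less RNA per cell cannot be told apart in any of the values below. Gene counts summed to between 1562347 and 6389555 per sample, and values are given as CPM, the count scaled to the size of the library. Where a sample has 0 counts of a gene, up to 3 counts remain possible, or 0.543 to 1.84 CPM by sample, for counting error alone.

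Markers of gland types separated the tumors as labeled. Summed over KRT5, KRT14, KRT79 and TP63, which mark stratified and sebaceous epithelium, HGA had 4558 to 15227 CPM, against 0 to 30.5 in AGASAC primary tumors and 0.531 to 18.5 in the metastases. The sum of 5 markers of simple gland epithelium was 409 to 731 CPM in HGA, 3556 to 6221 in AGASAC primary tumors and 3458 to 5982 in the metastases. RNA of the surrounding tissue differed as well. The sum of 10 skeletal muscle genes was 3.39 to 27.9 CPM in HGA, 9.72 to 1142 in AGASAC primary tumors and 4.18 to 7.79 in the metastases, in which MYH1, MYH2, CKM and TNNT3 had 0 counts throughout. The 6 T cell markers summed to 2.45 to 48.9 CPM in HGA, 16.7 to 113 in AGASAC primary tumors and 39.9 to 63.0 in the metastases, and the 6 B cell markers to 6.15 to 65.7, 13.1 to 41.3 and 21.2 to 41.9 CPM. Among the libraries, HGA 10 stood apart from the other HGA in several genes, and results are given without it where it bears on them. The part of these other cells in the results that follow was not tested, except where a value bears on it.

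PPARs are nuclear receptors that fatty acids and their derivatives activate. Each binds DNA as a heterodimer with an RXR, next to genes of lipid uptake, storage and oxidation. PPARA is best known from the liver, where it controls fatty acid oxidation and ketone body synthesis, PPARG drives the differentiation of fat cells and takes part in that of sebaceous gland cells, and PPARD is expressed in most tissues. RXRs also pair with the receptors of thyroid hormone, vitamin D, retinoic acid and oxysterols. The coactivators PGC-1α (PPARGC1A) and PGC-1β (PPARGC1B) dock on PPARs and on estrogen-related receptors and are known for raising the number and the oxidative capacity of mitochondria.

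The first comparison asks how the tumor entities differ in these genes. Tested with edgeR's quasi-likelihood test across all genes that passed a filter on low counts, a gene was called where its p, adjusted by the Benjamini-Yekutieli method, was 0.05 or less and its log2 fold change (log2FC) at least 1 in size. A positive log2FC means a higher level in HGA, and every edgeR adjusted p below is of this kind. Of the 8 genes, 6 passed the filter. PPARA, RXRA and PPARGC1B were called higher in HGA, RXRB was called lower, and PPARD and PPARG were not called. Over all 12070 genes tested, 12.6% were called higher in HGA and 12.5% lower. The CPM ranges of HGA and AGASAC primary tumors did not overlap in 2 of the 6 genes, PPARA and PPARGC1B, against 9.13% of all genes tested.

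**Figure D1:**
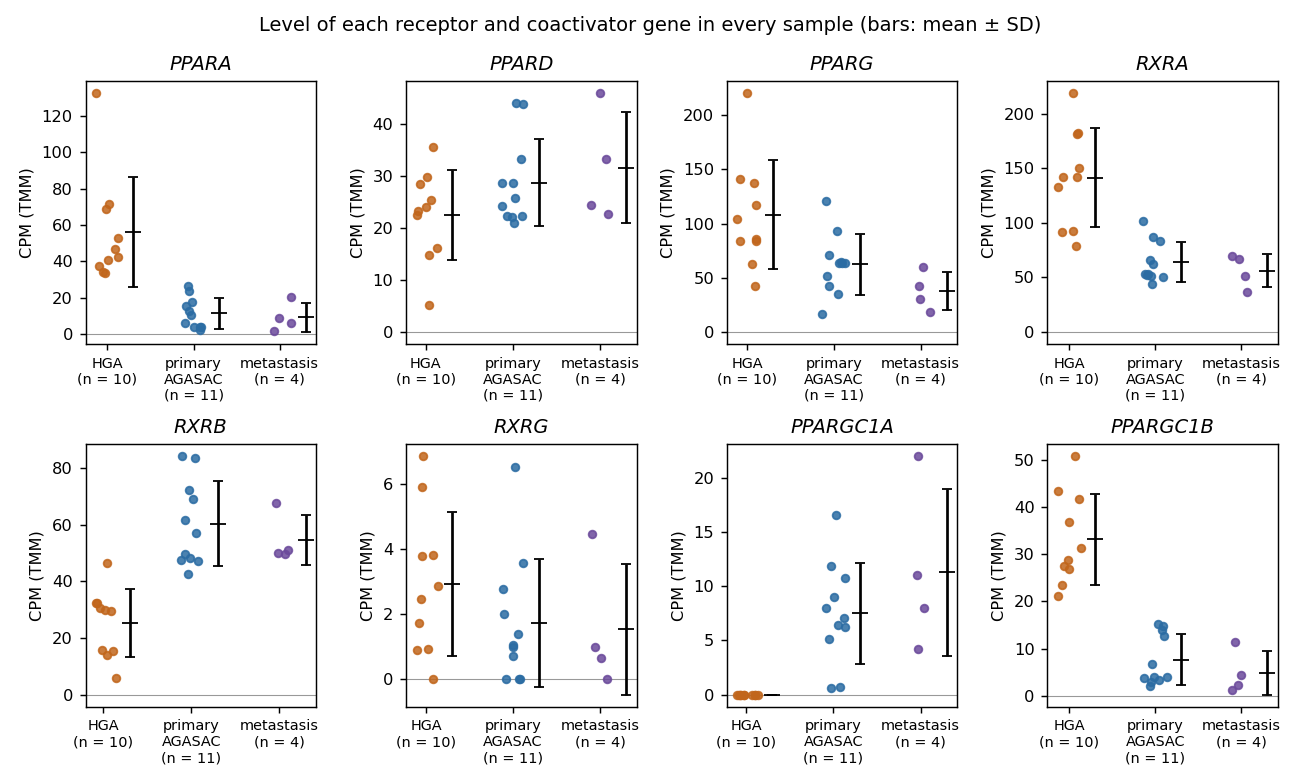
Level of each of the 8 genes in CPM with TMM scaling (linear vertical axes that differ between panels), 1 point per sample in HGA, AGASAC primary tumors and metastases; bars give the mean ± SD of the group. PPARA and PPARGC1B of the HGA lie above every AGASAC sample, PPARGC1A lies at 0 in all 10 HGA, and all but 1 of the 11 primary tumors lie above every HGA in RXRB.

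PPARA, the receptor of fatty acid oxidation, ranged from 33.7 CPM in HGA 8 over a median of 44.7 to 132 in HGA 10. In AGASAC primary tumors it ranged from 2.43 CPM in primary tumor 11 over a median of 10.4 to 26.8 in primary tumor 10. The lowest HGA thus lay above the highest AGASAC primary tumor, and the coefficient of variation was 53.4% in HGA and 72.9% in AGASAC primary tumors. Means were 56.1 ± 30.0 CPM (SD, n = 10) and 11.6 ± 8.47 (SD, n = 11). PPARA rose 4.94-fold in HGA (log2FC 2.30, standard error 0.39, edgeR adjusted p = 0.000319). HGA 10 stood apart from the other HGA, whose highest value was 71.7 CPM, and without it the log2FC was 2.07, still called.

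PPARG, the receptor of fat and sebaceous cell differentiation, had 42.4 CPM in HGA 4, a median of 95.4 and 221 CPM in HGA 10. AGASAC primary tumors had 16.99 CPM in primary tumor 2, a median of 63.9 and 121 CPM in primary tumor 11. The groups overlapped, with 3 HGA above every AGASAC primary tumor and 3 primary tumors below every HGA. Its means were 108 ± 50.2 CPM (SD, n = 10) and 62.4 ± 27.8 (SD, n = 11), a log2FC of 0.82 (standard error 0.28, 95% interval 0.27 to 1.37), and it was not called (edgeR adjusted p = 0.189). Primary tumor 11, the highest of its group, also had the highest sum of adipocyte markers among AGASAC samples, 415 CPM against a median of 32.8. Without primary tumor 11 the log2FC of PPARG was 0.96, and without HGA 10, the highest HGA, it was 0.65. These were the highest and the lowest values with 1 sample left out, and PPARG was called in neither.

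PPARD, the most widely expressed PPAR, had 5.16 to 35.6 CPM in HGA (median 23.7) and 21.1 to 44.1 CPM in AGASAC primary tumors (median 25.8). Its means were 22.6 ± 8.66 CPM (SD, n = 10) and 28.8 ± 8.37 (SD, n = 11). The log2FC was −0.32 with a standard error of 0.24 and an interval from −0.79 to 0.15, and PPARD was not called (edgeR adjusted p = 1). HGA 10, the highest HGA in PPARA and PPARG, was the lowest in PPARD.

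RXRA, the main partner receptor in epithelia and liver, ranged from 78.9 CPM in HGA 8 over a median of 142 to 219 in HGA 6. AGASAC primary tumors ranged from 44.5 CPM over a median of 52.8 to 102 in primary tumor 9. The lower HGA and the upper AGASAC overlapped between 78.9 and 102 CPM. Means were 142 ± 45.1 CPM (SD, n = 10) and 64.1 ± 18.7 (SD, n = 11), and RXRA rose 2.24-fold in HGA (log2FC 1.17, standard error 0.19, edgeR adjusted p = 0.000267). Scaled by library size alone, which moved the median log2FC of all genes from −0.03 to −0.33, the log2FC of RXRA was 0.86 (edgeR adjusted p = 0.00765) and fell short of the fold threshold.

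RXRB, a partner receptor present in most tissues, moved the other way. It had 5.94 CPM in HGA 9, a median of 29.7 and 46.7 CPM in HGA 1, while AGASAC primary tumors had 42.6 CPM in primary tumor 7, a median of 57.3 and 84.4 CPM in primary tumor 6. All but 1 of the primary tumors (10 of 11) lay above every HGA. Means were 25.3 ± 12.1 CPM (SD, n = 10) and 60.3 ± 15.0 (SD, n = 11), and RXRB was 2.34-fold lower in HGA (log2FC −1.23, standard error 0.25, edgeR adjusted p = 0.00310).

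RXRG, known from muscle and nervous tissue, was at the edge of detection. HGA had 0 to 38 counts per sample (0 to 6.87 CPM), AGASAC primary tumors 0 to 20 counts (0 to 6.54 CPM) and the metastases 3, 0, 2 and 14 counts. It passed the filter in none of the comparisons of these groups, and a difference between them was not detectable at this depth.

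Among the coactivators, PPARGC1B had 21.1 CPM in HGA 10, a median of 30.1 and 50.8 CPM in HGA 6. In AGASAC primary tumors it had 2.08 CPM in primary tumor 3, a median of 4.13 and 15.3 CPM in primary tumor 5, so the groups did not overlap. Means were 33.1 ± 9.63 CPM (SD, n = 10) and 7.65 ± 5.36 (SD, n = 11), and PPARGC1B rose 4.38-fold in HGA (log2FC 2.13, standard error 0.34, edgeR adjusted p = 0.000193).

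PPARGC1A showed the opposite pattern. It had 0 counts in all 10 HGA, out of 32001976 counts in that group, and 260 counts in the 11 AGASAC primary tumors, out of 33244215. Every AGASAC primary tumor held reads of it, from 2 counts in primary tumor 1 and 3 in primary tumor 11 to 56 in primary tumor 3 (0.603 to 16.6 CPM, median 7.04), with a mean of 7.50 ± 4.66 CPM (SD, n = 11). Against the 3 counts that a count of 0 allows in each HGA library, 1.24 CPM on average, PPARGC1A was at least 6.05-fold lower in HGA. In the fit it was removed by the filter on low counts. When that filter was left out it was called lower (edgeR adjusted p = 5.37e-05), against 8.39% of 24332 genes called lower in that fit. This call follows from the zeros in HGA and is given as description. A log2FC of this gene depends on the count added to the zeros and is not given. PPARGC1A is also strongly expressed in skeletal muscle, and muscle RNA was present in the primary tumors. The 4 metastases, whose muscle markers summed to at most 7.79 CPM, had 34, 30, 13 and 69 counts of PPARGC1A. How much of the PPARGC1A of the primary tumors came from muscle RNA was not tested.

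**Figure D2:**
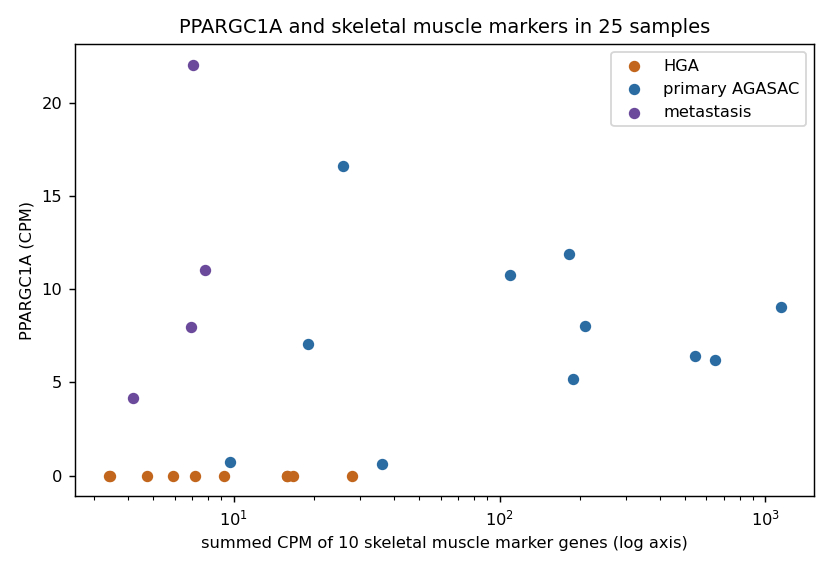
PPARGC1A (CPM, vertical axis) against the summed CPM of 10 skeletal muscle marker genes (horizontal log axis), 1 point per sample. The 10 HGA lie at 0 on the vertical axis, the 4 metastases lie between 4.18 and 22.0 CPM at the left, and the primary tumors spread over muscle sums from 9.72 to 1142 CPM, with their highest PPARGC1A value, 16.6 CPM, at a sum of 25.8.

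The balance within each family was described as the share of reads, sample by sample. A 3′ method counts about 1 position per transcript, so the reads do not grow with transcript length, but each share still depends on how the 3′ end of its gene is annotated. Shares are therefore compared between samples and carry no test. RXRA held 69.1% to 91.6% of the RXR reads in HGA (median 84.6%), 44.4% to 57.3% in AGASAC primary tumors (median 48.9%) and 40.4% to 57.4% in the metastases. RXRB held 5.86% to 28.4% in HGA and 41.8% to 53.6% in the primary tumors. Every HGA thus had most of its RXR reads from RXRA, whereas each AGASAC sample was close to an even split of RXRA and RXRB, and neither share overlapped between the tumor types.

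Among PPAR reads, PPARG held the largest median share of HGA (58.2%) and of AGASAC primary tumors (63.0%), and the ranges of the groups overlapped. PPARA held 18.1% to 39.2% of PPAR reads in HGA and 1.60% to 29.7% in the primary tumors, with medians of 31.1% and 8.50%. PPARD ran the other way, at 1.44% to 21.6% and 18.9% to 57.5%, with medians of 13.6% and 26.4%. Reads of the PGC-1 pair all came from PPARGC1B in HGA. In AGASAC primary tumors the PPARGC1A share ranged from 15% in primary tumor 11 to 88.9% in primary tumor 3, and in the metastases from 63.8% to 82.9%.

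**Figure D3:**
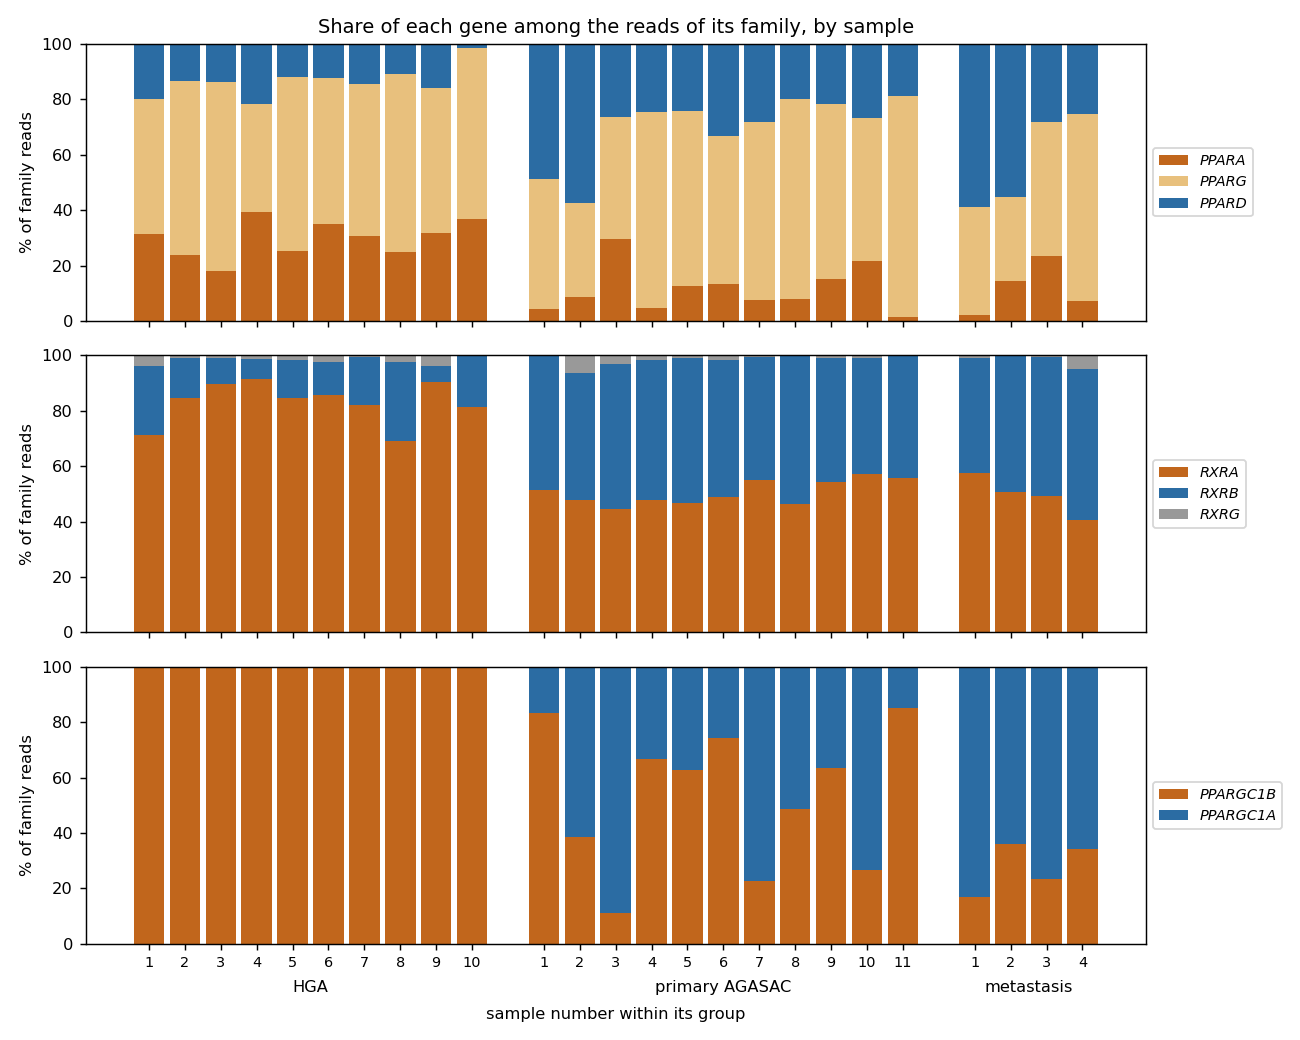
Share of each gene among the reads of its family (vertical axis, percent) in every sample, ordered by group and sample number, with the PPAR genes in the upper, the RXR genes in the middle and the PGC-1 genes in the lower panel. RXRA takes 69.1% or more of the RXR reads in each HGA and at most 57.4% in each AGASAC sample, and PPARGC1A is absent from the HGA bars.

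The second comparison set the 4 metastases against the same 10 HGA. It shares the HGA libraries with the first one, so the values are given side by side and not as a repeat. Of the 7 genes that passed the filter, PPARA, RXRA and PPARGC1B were called higher and PPARGC1A lower in HGA, against 8.4% and 7.69% of the 13195 genes tested. Ranges did not overlap in 5 of the 7 genes, PPARA, RXRA, RXRB, PPARGC1A and PPARGC1B, against 16.1% of all genes tested. PPARGC1A, at 0 counts in all 10 HGA, passed the filter only through the metastases, where it had 13 to 69 counts. Its call and its lack of overlap follow from those zeros and are given as description. PPARA had 1.62, 8.76, 20.6 and 6.39 CPM in metastases 1 to 4, a log2FC of 2.61 (standard error 0.55, edgeR adjusted p = 0.0177). RXRA had 70.1, 50.9, 66.9 and 37.1 CPM, a log2FC of 1.35 (standard error 0.29, edgeR adjusted p = 0.0180). Both calls were lost without metastasis 2 or without metastasis 4, where their edgeR adjusted p lay between 0.0776 and 0.104.

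PPARGC1B had 2.27, 4.51, 1.29 and 11.5 CPM in the metastases, all below every HGA, and a log2FC of 2.77 (standard error 0.47, edgeR adjusted p = 0.00306). PPARGC1A had 11.0, 7.96, 4.18 and 22.0 CPM and was at least 9.12-fold lower in HGA (edgeR adjusted p = 0.00380). RXRB had 50.9, 49.6, 67.9 and 50.2 CPM, above every HGA, with a log2FC of −1.09 (standard error 0.36) that was not called (edgeR adjusted p = 0.278). PPARG had 30.5, 18.3, 42.1 and 60.4 CPM and a log2FC of 1.54 (standard error 0.41), also not called (edgeR adjusted p = 0.0813). PPARD, with 46.1, 33.4, 24.4 and 22.7 CPM, had a log2FC of −0.46 (standard error 0.35, edgeR adjusted p = 1).

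**Figure D4:**
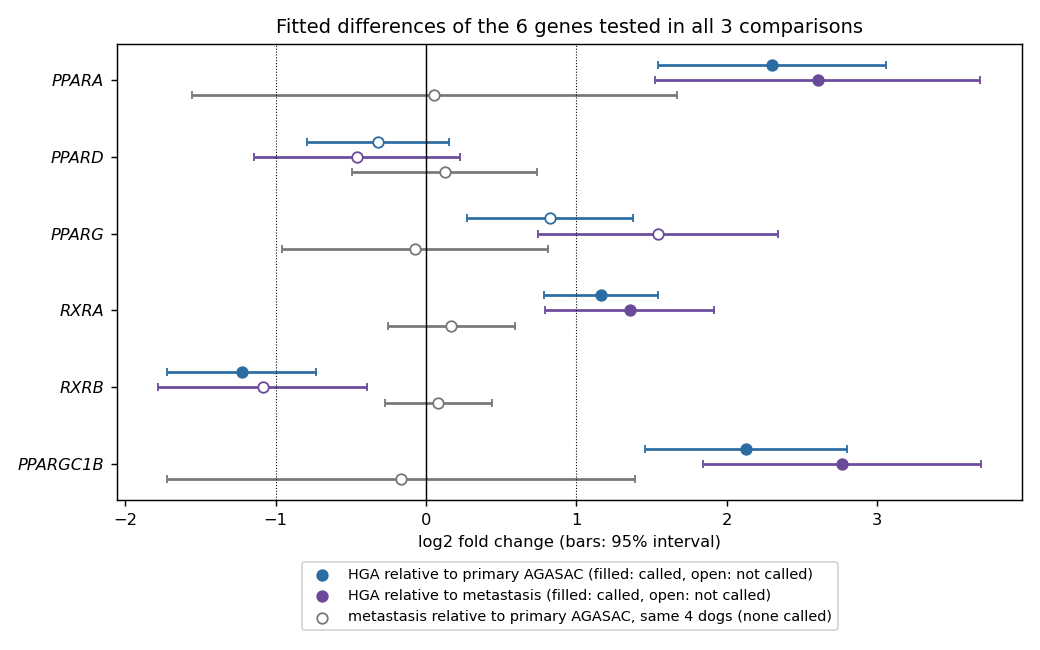
Fitted log2 fold change (horizontal axis) of the 6 genes tested in all 3 comparisons of groups, with bars for the 95% interval, filled points for called genes and dotted lines at the fold threshold. PPARA, RXRA and PPARGC1B lie past 1 against AGASAC primary tumors (2.30, 1.17 and 2.13) and against the metastases (2.61, 1.35 and 2.77), RXRB lies at −1.23 and −1.09, and the values of metastases against paired primary tumors lie between −0.16 and 0.17.

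The third comparison asks whether the metastases differ from the primary tumors of the same 4 dogs. In edgeR's quasi-likelihood test 0 of 7 genes were called, and of all 12629 genes tested 0% were called (145 had an unadjusted p under 0.05, and DESeq2 called 5 genes, none of these 8). The log2FC, metastasis relative to primary tumor, was 0.06 for PPARA (interval −1.56 to 1.67), 0.12 for PPARD (−0.49 to 0.74) and −0.07 for PPARG (−0.96 to 0.81). It was 0.17 for RXRA (−0.25 to 0.59) and 0.08 for RXRB (−0.28 to 0.44). For the coactivators it was 0.59 in PPARGC1A (−0.95 to 2.14) and −0.16 in PPARGC1B (−1.72 to 1.39). These intervals are normal ones, which are narrow for groups of 4 samples. Those of RXRA, RXRB and PPARD lay inside a 2-fold change in either direction, and that of PPARG came close to it. Those of PPARA and the coactivators reached past it. This fit did not take the dog into account. With the dog as a block, the standard error went from 0.82 to 0.43 for PPARA and from 0.79 to 0.40 for PPARGC1B, at log2FC values of 0.12 and −0.21, and for PPARGC1A from 0.79 to 0.83 at 0.84.

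In most of these genes the dogs differed more from each other than their paired samples did. PPARGC1B went from 3.01 to 2.27 CPM in dog 1, from 3.92 to 4.51 in dog 2, from 2.08 to 1.29 in dog 3 and from 12.8 to 11.5 in dog 4. The dog order was thus the same in both tissues, as it was for PPARA and RXRA. PPARA went from 3.92 to 1.62 CPM in dog 1, from 4.25 to 8.76 in dog 2, from 23.7 to 20.6 in dog 3 and from 4.17 to 6.39 in dog 4. On the log2(CPM + 1) scale the SD between dog means and the SD of the paired differences were 1.00 and 0.25 for PPARGC1B, 0.46 and 0.09 for PPARD, 0.72 and 0.31 for PPARG, 1.13 and 0.80 for PPARA and 0.20 and 0.04 for RXRB. RXRA had 0.26 and 0.31.

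PPARGC1A had 0.66 between dogs and 2.00 for the paired differences. It went from 0.603 CPM (2 counts) to 11.0 in dog 1, from 6.21 to 7.96 in dog 2, from 16.6 down to 4.18 in dog 3 and from 6.39 to 22.0 in dog 4. The gene was higher in 3 of 4 metastases and changed most, in opposite directions, in dogs 1 and 3. PPARD and RXRB were higher in 4 of 4 metastases, by small amounts that the test did not call.

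The last comparison asked whether the difference between HGA and AGASAC primary tumors depends on sex, with the neuter status ignored since all male AGASAC dogs were neutered and 4 of the 5 male HGA dogs were not. Sex and castration therefore cannot be told apart in it. In edgeR's quasi-likelihood test of the interaction 0 of the 7 genes that passed the filter were called, and 0% of 13826 genes tested (1191 had an unadjusted p under 0.05). The widest estimate was that of PPARGC1B, an interaction of 1.12 on the log2 scale (standard error 0.63, edgeR adjusted p = 1). Its mean was 10.5 ± 5.41 CPM in female AGASAC dogs (SD, n = 5) and 5.27 ± 4.37 in male ones (SD, n = 6), and 31.6 ± 8.24 and 34.7 ± 11.6 CPM (SD, n = 5 each) in HGA. PPARGC1A was among the 7 genes that passed the filter, but at 0 in every HGA it gives no estimate here. Its lack of a call therefore says nothing on sex.

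Genes around these receptors were taken from lists by role. Those of coregulators, which form the complexes that receptors recruit, had 14 members tested between HGA and AGASAC primary tumors, of which 1 was called higher, 4 were called lower and 9 were not called, with a median log2FC of −0.30 beside −0.03 over all genes tested. For each list, the share over all genes tested in this fit was 12.6% called higher and 12.5% lower. The one that rose was NRIP1 (RIP140), a corepressor of nuclear receptors and of oxidative metabolism, at 237 ± 112 CPM (SD, n = 10) against 57.5 ± 31.7 (SD, n = 11), a log2FC of 2.06 (edgeR adjusted p = 0.000244). PRMT1, an arginine methyltransferase that acts as a coactivator, had a log2FC of −1.49 (edgeR adjusted p = 5.22e-07), and NCOA1 (SRC-1), a p160 coactivator, one of −1.46 (edgeR adjusted p = 9.92e-05). TBL1X, a part of a corepressor complex, had −1.02.

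Other receptors that pair with RXR were called higher in 3 and lower in 1 of 9 tested, with a median log2FC of 0.18. THRB, a thyroid hormone receptor, had 10.2 to 568 CPM in HGA against 3.01 to 15.4 in AGASAC primary tumors, and a log2FC of 3.43 (edgeR adjusted p = 0.000812). Without HGA 10, the highest sample, it was 1.96 (edgeR adjusted p = 0.000165). The vitamin D receptor VDR had a log2FC of 2.05 (edgeR adjusted p = 0.0183) and the oxysterol receptor NR1H3 (LXRα) one of 1.27 (edgeR adjusted p = 0.0499). NR4A1 (NUR77), an orphan receptor that can pair with RXR, was lower at −1.78 (edgeR adjusted p = 0.0292). The retinoic acid receptors RARA and RARG had log2FC values of 0.18 and 0.59 and were not called. The list of PGC-1 partner factors holds both factors that PGC-1 proteins dock on and factors of mitochondrial transcription. Of its 9 tested genes 1 was called higher and 0 lower, with a median of 0.07. The called gene was TFB2M, a mitochondrial transcription factor (log2FC 1.07, edgeR adjusted p = 0.00180). ESRRA, the estrogen-related receptor that PGC-1 proteins bind, had a log2FC of 0.80 (edgeR adjusted p = 0.0345), under the fold threshold.

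The list of PPARG target genes holds mostly genes of lipid uptake and storage, with the transcription factors CEBPA and CEBPB beside them. It had 12 of 16 members tested, of which 8 were called higher in HGA and 1 lower, with a median log2FC of 3.81. PLIN1, PLIN4, AQP7 and PCK1 were removed by the filter. PLIN4, a lipid droplet protein, had a median of 93.5 counts in HGA but 1 count in HGA 10. It passed the filter once HGA 10 was left out, a step chosen after seeing the data. It was then called (log2FC 5.67, edgeR adjusted p = 1.42e-05). PLIN4 had 0 counts in 8 of the 11 AGASAC primary tumors and passed only through the HGA. Its call is therefore given as description, and its log2FC depends in part on the count added to zeros. CIDEA, a lipid droplet protein, had 386 to 2365 CPM over the HGA, while no AGASAC primary tumor had more than 1 count. CIDEC, a relative of it, had 96.5 to 1264 CPM in HGA and 0 to 2.29 in AGASAC primary tumors (log2FC 9.41, edgeR adjusted p = 1.44e-09). With 0 counts in 6 of 11 primary tumors, the size of this log2FC depends in part on the count added to zeros. ACSL1, which activates fatty acids, had a log2FC of 7.14 (edgeR adjusted p = 4.05e-09), with 80.0 CPM in HGA 10, the lowest HGA, beside a median of 2718. LPL, the lipase of triglyceride uptake, had 4.41 (edgeR adjusted p = 1.47e-05) and CEBPA, a transcription factor that acts with PPARG in fat cells, 4.14 (edgeR adjusted p = 4.57e-09). FABP4 (3.92), GPD1 (3.70) and CEBPB (3.04) were called as well. ADIPOQ, the fat cell hormone adiponectin, was the one that fell, with 0 to 22.5 CPM in HGA and 1.78 to 399 in AGASAC primary tumors (log2FC −4.04, edgeR adjusted p = 0.0155). The highest ADIPOQ value was that of primary tumor 11.

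The adipocyte marker list shares ADIPOQ, PLIN1, FABP4, CIDEC and GPD1 with these targets. Its sum was 204 to 1396 CPM in HGA, 9.48 to 415 in AGASAC primary tumors and 11.3 to 97.4 in the metastases, and the groups overlapped. Of its 8 genes 5 were tested, of which CIDEC, FABP4, GPD1 and LIPE, the hormone-sensitive lipase (log2FC 1.90, edgeR adjusted p = 0.000342), were called higher in HGA and ADIPOQ lower. LEP, the fat cell hormone leptin, had at most 7 counts in any HGA, and PLIN1, which coats lipid droplets, a median of 3 counts and up to 115. The part of fat cells in these values was not tested.

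PPARA target genes of fatty acid oxidation had 16 members tested, of which 5 were called higher in HGA, 3 lower and 8 not, with a median of 0.25. ACAA2, the last enzyme of mitochondrial β-oxidation, had a log2FC of 2.66 (edgeR adjusted p = 4.09e-08), and CPT2, the carnitine transferase of the inner mitochondrial membrane, rose 4.59-fold (edgeR adjusted p = 1.26e-05). PEX11A, a peroxisome protein, had 1.47 and the carnitine carrier SLC25A20 1.23. Its partner enzymes of the outer membrane fell: CPT1A had a log2FC of −2.67 (edgeR adjusted p = 0.000165) and CPT1B, the muscle form, −2.66 (edgeR adjusted p = 5.24e-05). CPT1B had 13.3 to 58.7 CPM in the primary tumors, 14.0 to 77.2 in the metastases, with the muscle marker sums given above, and 0.452 to 23.2 in HGA. The part of muscle RNA in it was not tested. CYP4A11, a fatty acid hydroxylase, had no more than 1 count per HGA and 4.54 to 1815 CPM in AGASAC primary tumors. It belongs to a gene family, and the authors' counting split multi-mapped reads evenly between their locations. Whether this touched the reads of CYP4A11 was not tested, so its values are uncertain.

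Targets shared by the PPARs or linked to PPARD were called higher in 4 of 6 and lower in 0, with a median of 1.45. They were PDK4, which turns cells from glucose to fat oxidation (log2FC 4.47, edgeR adjusted p = 5.65e-05), the lipid droplet protein HILPDA (2.83, edgeR adjusted p = 4.02e-08), the lipase inhibitor ANGPTL4 (1.46, edgeR adjusted p = 0.00375) and the fatty acid carrier SLC27A1 (1.18, edgeR adjusted p = 0.0369). SLC27A1 was at 0.71 and not called without HGA 10. Binding proteins that carry fatty acids or retinoids in the cell were called higher in 3 of 5 and lower in 1, with a median of 3.34, and FABP4 stands in this list and in that of PPARG targets. FABP5, which carries fatty acids to PPARD, had a log2FC of 3.34 (edgeR adjusted p = 3.54e-05), whereas CRABP2, which carries retinoic acid to its receptors, had −2.96 (edgeR adjusted p = 0.000202).

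Without HGA 10 the lists gave 1 higher and 3 lower coregulators of 15, 3 and 1 partner receptors of 9, 1 and 0 PGC-1 partners of 9, 9 and 1 PPARG targets of 13, 5 and 4 PPARA targets of 16, 3 and 0 shared targets of 6, and 3 and 1 binding proteins of 5. Against the metastases, whose comparison shares the HGA libraries, the calls higher and lower in HGA were 0 and 2 coregulators of 15, 2 and 0 partner receptors of 9, 0 and 0 PGC-1 partners of 10, 7 and 0 PPARG targets of 14, 5 and 3 PPARA targets of 16, 2 and 0 shared targets of 6, and 2 and 1 binding proteins of 5. Over all genes tested, 13.5% were called higher and 13.8% lower without HGA 10, and 8.4% and 7.69% against the metastases. Between metastases and primary tumors, edgeR's quasi-likelihood test called 0 genes of these 7 lists, and an unadjusted p under 0.05 was met by 1 PGC-1 partner and 1 shared target.

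**Figure D5:**
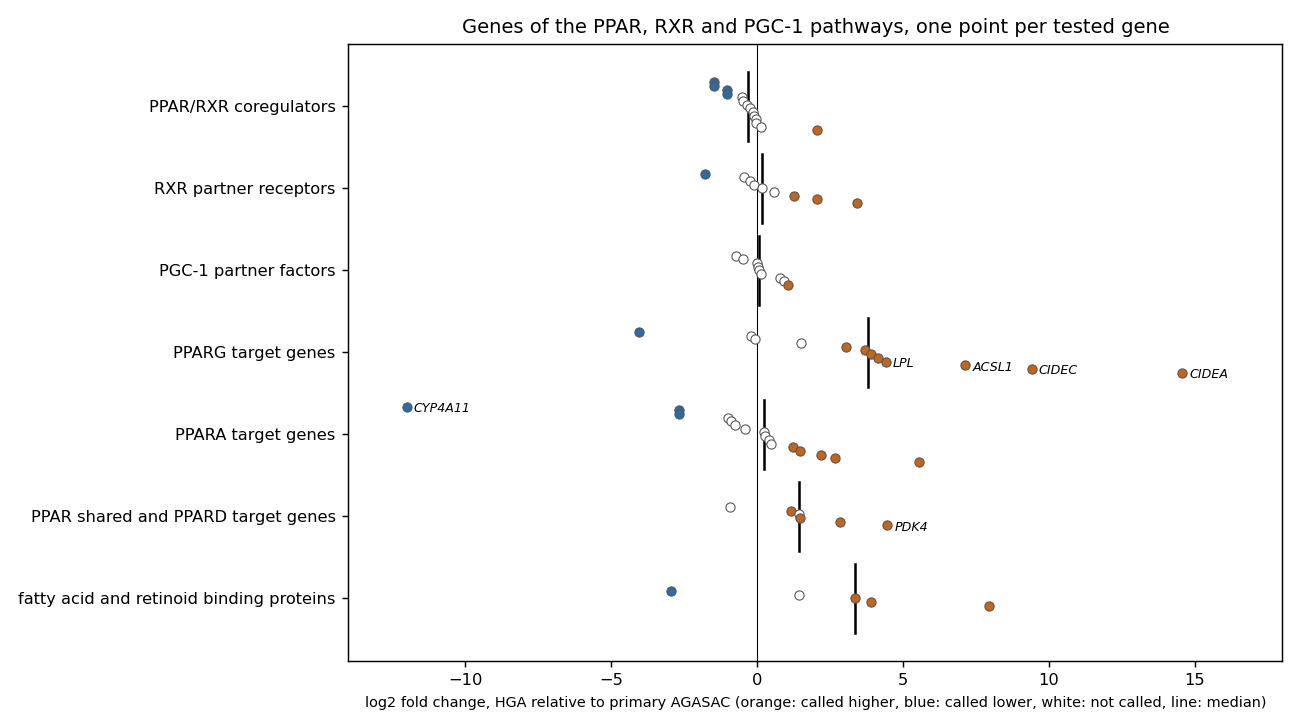
Log2 fold change of HGA relative to AGASAC primary tumors (horizontal axis) for each tested gene of 7 lists (rows), in orange where called higher, in blue where called lower and white where not called; the black line is the median of the list. The PPARG targets spread far to the right, with a median of 3.81, while the PPARA targets lie on both sides of 0 with a median of 0.25. CIDEA and CYP4A11 had at most 1 count in any sample of one group, so their positions depend on the count added to zeros. CIDEC had 0 counts in 6 of 11 AGASAC primary tumors and at most 7 in any, so its position depends on it in part.

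The genes whose pattern was most like each receptor or coactivator were sought by Pearson's r of log2(CPM + 1) over the 25 samples. These values hold the difference between tumor types, so r over deviations from the group means is given as well. All of them are descriptions across samples that share a scale. The closest to PPARA was NPEPPS, an aminopeptidase, with an r of 0.907 and 0.800 over deviations, followed by the row listed as MIR193A (0.887 and 0.623) and ITGA6, an integrin (0.866 and 0.532). PPARG was closest to TLE3, a Groucho family cofactor (0.814 and 0.714), LMAN2 (0.767 and 0.723) and PAK6 (0.756 and 0.599), and PPARD to GSTP1, a glutathione transferase (0.818 and 0.806), MGAT4B (0.812 and 0.804) and NUMBL (0.798 and 0.783). The values of PPARD rested in part on HGA 10, its lowest sample. Without it r was 0.686, 0.571 and 0.644 for these 3 genes, and 0.657, 0.525 and 0.610 over deviations, an alternative chosen after seeing the data.

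RXRA was closest to YBX1 (0.875 and 0.563), TMEM135 (0.864 and 0.539) and PHB, a mitochondrial scaffold protein (0.859 and 0.522). RXRB was closest to ZNF331 (0.893 and 0.751), PPIC (0.886 and 0.748) and NEK7 (0.872 and 0.651), and PPARGC1B to PSME4 (0.919 and 0.709), TMEM144 (0.906 and 0.594) and KRT5, a keratin of stratified epithelium (0.905 and 0.644). None of the 8 genes was among the closest of another. RXRA and RXRB had an r of −0.473 over the 25 samples and 0.399 over deviations. They thus ran in opposite directions between tumor types, while their deviations, pooled over the groups, ran in the same direction. The r within each group alone was not taken.

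Extraction batches and the sequencing file names divide the samples in ways that partly follow the tumor types. Both tumors had at least 2 samples in 3 extraction batches, and there the direction of all 4 called genes was kept, but none was called within a batch of 5 or 6 samples, where 2.12%, 4.84% and 2.46% of all genes tested were called in batches 5, 6 and 8. PPARA had a log2FC of 1.71 in batch 5, 2.02 in batch 6 and 3.07 in batch 8, RXRA 0.77, 1.12 and 1.84, RXRB −1.83, −1.06 and −0.75, and PPARGC1B 2.28, 1.41 and 2.45. With the batch as a term of the fit over all 21 tumors, the same 4 genes were called. Within the file name series that held 9 HGA and 3 AGASAC primary tumors, RXRA (1.47), PPARGC1B (3.53) and PPARG (1.63, edgeR adjusted p = 0.0453) were called, against 16.1% of all genes tested, while PPARA (2.17, edgeR adjusted p = 0.0501) and RXRB (−1.09, edgeR adjusted p = 0.539) were not. The other series held 1 HGA and 7 AGASAC primary tumors, too few HGA for a value of its own.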

How the data were processed

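Total RNA of the 25 samples was sequenced with QuantSeq 3′ mRNA-Seq FWD. Per the labels and the study's methods, the authors trimmed reads with Cutadapt, aligned them to CanFam3.1 with STAR and counted them with featureCounts in 2 rounds, the second with 3′ ends extended by up to 2 kb, splitting multi-mapped reads evenly. The deposited table gives whole read counts of 24532 genes, 8449 of them under LOC numbers, and the count columns of all 25 samples were used. Its signal columns, which are counts the authors divided by size factors, and the authors' deposited log2 fold changes and p-values were not used.

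Counts were fitted in R 4.3.3 with edgeR 4.0.16 (filterByExpr with minimum count 10 and total 15, TMM, quasi-likelihood test, Benjamini-Yekutieli adjustment over all genes tested). The standard error was taken as log2FC over the square root of F, and 95% intervals are normal. Levels are CPM with TMM over 25 samples. DESeq2 1.42.0, other scalings, filters, batch and DV200 terms, a replicate block, sample sets and leaving out each sample were the alternatives. The scripts were tested on simulated data. The lists and members were chosen with earlier results of these data known. Named genes are, per list, the largest rise, the largest fall and up to 3 further called genes, and per tested member the 3 genes most alike; others were named after their values were seen. Some genes that this rule names are not reported here. Extraction batches and file name series come from the study's sample sheets.

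Metastases and primary tumors of a number come from the same dog by the labels, and their deviations from the group means correlated at 0.424 to 0.710 in 4 of 4 dogs. The labels number the samples of a group without naming separate dogs, so p-values measure the spread between these samples, and a chi-square test found 0 duplicates among pairs of a group. Annotation at hand was of another assembly, so no coordinates are given.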

Additional observations from a re-analysis of the deposited data

Results flagged for a closer look

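PPARA had 132 CPM in HGA 10, far above the next HGA at 71.7 CPM. HGA 10 is the only HGA of its file name series and the only sample of its extraction batch, and it also had the highest PPARG and THRB and the lowest PPARD, CIDEA and ACSL1 of the group. Without it PPARA was still called, at a log2FC of 2.07.

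RXRB had 67.9 CPM in metastasis 3, against 49.6 to 50.9 CPM in the other 3. The primary tumor of the same dog had 61.7 CPM, the highest of the 4 paired primary tumors. The PPARA value of HGA 10 and the RXRB value of metastasis 3 lay far from the rest of their group by a test of the gap. Chance meets such a gap in about 1 of 20 groups, and 15 sets of values were looked at. The primary tumors were not put to this test.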

How the results depend on the processing

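PPARA, RXRA, RXRB and PPARGC1B were called between HGA and AGASAC primary tumors with each of the 21 samples left out (4 to 5 of the 8 genes called). PPARGC1A was the fifth, since it passed the filter once an HGA was left out, and DESeq2 and all 15 AGASAC samples called it too. At 0 counts in every HGA, it passed the filter only through the AGASAC samples. These calls of PPARGC1A follow from the zeros and are given as description. Within extraction batches 5, 6 and 8 the count was 0. PPARD turned to 0.18 within batch 5. At least 10 counts in every sample removed PPARGC1B from the test and lowered all calls from 3032 to 1452, and library size alone changed their split from 1523 higher and 1509 lower to 1053 and 2156. Against the metastases 4 genes were called, 2 to 5 with a sample left out, 1 with at least 10 counts in every sample (RXRA, since the others were not tested or not called) and 0 with a replicate block. There the numbers are only shared, not paired (correlations −0.034 to 0.003), and all calls went from 2124 to 762. They were 1153 under the strict filter, 3536 with Benjamini-Hochberg adjustment, which added PPARG and RXRB, and 3211 with DESeq2, which added PPARG. Without HGA 4 PPARG was called too (edgeR adjusted p = 0.0366). The number block between HGA and AGASAC (correlations −0.055 to 0.041) kept the 4 calls. Between metastases and primary tumors 0 of the 8 genes were called in any alternative, the dog block included. Over all genes the dog block called 1 and DESeq2 5. With all 11 primary tumors PPARA was at −0.32, RXRA at −0.20, RXRB at −0.15, PPARG at −0.73 and PPARGC1B at −0.65. With a sample left out the ranges were −0.66 to 1.18 for PPARA, −0.10 to 0.39 for PPARD, −0.40 to 0.28 for PPARG, 0.059 to 0.32 for RXRA, −0.038 to 0.18 for RXRB, 0.038 to 1.34 for PPARGC1A and −1.01 to 0.72 for PPARGC1B. Depth limits RXRG and PPARGC1A.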
